A study of Mus musculus with 8 samples.

Results

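The homeostatic microglia genes are 9 genes of the deposited count table, taken by gene name out of the 54532 genes listed: P2ry12, P2ry13, Cx3cr1, Csf1r, Gpr34, Tmem119, Siglech, Fcrls and Sall1. They were measured by bulk RNA-seq in the cortex of 8 C57BL/6 mice aged 8 mo, with 1 library per mouse. In both groups the mice carried the PS19 transgene, a human 1N4R tau with the P301S mutation driven by the mouse prion promoter. Mice m677, m668, m665 and m659 carried this transgene alone (PS19), and mice m671, m661, m660 and m658 also carried the Adrb1-A187V mutation (Adrb1-A187V;PS19), a knock-in made with CRISPR/Cas9 and used in the heterozygous state. The study states that controls were littermates and that male mice were used unless noted. No mouse without the tau transgene was among these samples, so the levels below have no healthy reference. A count per gene does not show the base change in Adrb1 and so does not check the genotype labels.

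Microglia are the resident macrophages of the brain. In the healthy brain they express a set of surface receptors and transcription factors, often called homeostatic genes, with which they sense nucleotides, chemokines and growth factors released by neurons and other cells. In mouse models of amyloid and tau pathology some of these genes are known to fall in microglia that gather at lesions, where another set of genes, called disease-associated, rises. Survival of microglia depends on signalling through Csf1r, and their identity depends on transcription factors such as PU.1, encoded by Spi1, and Sall1.

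All 9 genes passed edgeR's filter on low counts, and were detected in every mouse with 175 to 2453 counts. Libraries held 14653222 to 21223754 counts, of which the 9 genes together took 0.0286% to 0.0424%, and counting error alone gave a single value an uncertainty of 2.02% to 7.56%. The deepest libraries were those of PS19 mouse m665 and Adrb1-A187V;PS19 mouse m661, the mice in which most of these genes were lowest, and the part of depth in their levels was not tested. Lists of marker genes were summed to describe the cells in the libraries. They were not chosen to tell cortex from other brain regions, so the label of the tissue was not checked. The lists differ in their genes and gene lengths, so the sums are not shares of cells. The summed CPM of 8 neuron genes was 5949 to 6793 per mouse and that of 9 homeostatic genes 284 to 427. CPM here is the read count scaled to the library size with edgeR's TMM factors. Border-associated macrophage genes summed to 12.9 to 24.1 CPM. Monocyte and neutrophil genes summed to 0.838 to 2.47 CPM, and 1 of the 8 listed passed the filter on low counts. Each library is a mixture of cortical cells, so fewer microglia and less RNA per microglial cell cannot be told apart in any value below.

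Promoter sequences are shown for P2ry13, Fcrls and Siglech, which were in pairs of members that passed the test of their correlation over the mice, and for Sall1, which was in none. RefSeq promoter windows of the same genome build (GRCm38.p6) matched 6 of the 9 genes. The 250 bases before each start were searched on both strands for GAGGAA, the PU box bound by PU.1, and for GGAAGT, a core of the wider ETS family. These motifs were chosen after the sequences had been read. Capitals mark a match, given 5′ to 3′ on the strand of the gene, so that ACTTCC is GGAAGT on the other strand. Bases annotated as untranslated in any transcript were left out, which leaves 244 bases of Siglech and 78 of Fcrls.
P2ry13 (chr3:59210883-59211132, minus strand): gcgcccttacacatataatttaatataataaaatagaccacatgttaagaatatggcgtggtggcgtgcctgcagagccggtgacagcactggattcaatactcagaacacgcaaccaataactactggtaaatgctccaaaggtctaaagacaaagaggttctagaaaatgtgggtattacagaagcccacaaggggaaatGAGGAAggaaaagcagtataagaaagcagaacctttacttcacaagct
Fcrls (chr3:87263600-87263677, minus strand): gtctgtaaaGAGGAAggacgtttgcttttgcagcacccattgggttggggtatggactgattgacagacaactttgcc
Siglech (chr7:55767934-55768177, plus strand): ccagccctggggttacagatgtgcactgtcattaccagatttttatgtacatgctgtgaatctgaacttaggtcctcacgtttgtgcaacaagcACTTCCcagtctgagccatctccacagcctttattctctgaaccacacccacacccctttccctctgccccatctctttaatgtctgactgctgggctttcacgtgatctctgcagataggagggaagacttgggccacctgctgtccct
Sall1 (chr8:89044163-89044412, minus strand): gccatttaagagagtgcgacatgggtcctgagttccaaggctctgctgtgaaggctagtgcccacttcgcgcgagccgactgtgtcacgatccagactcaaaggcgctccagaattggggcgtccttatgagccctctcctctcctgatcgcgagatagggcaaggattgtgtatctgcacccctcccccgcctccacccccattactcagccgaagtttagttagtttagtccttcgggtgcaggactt
The PU box of P2ry13 began 48 bases before the start and that of Fcrls 144 bases before its RefSeq start. The printed Fcrls bases lie inside the span of the gene given below, which begins at 87263738 on the minus strand. They thus precede a RefSeq start within the gene and not the first base of that span. GGAAGT lay 156 bases before the start of Siglech. Over the whole windows, 2 of the 6 genes held the PU box and 4 held GGAAGT, including P2ry12 at 51 bases, Fcrls at 75 bases and another listed start of Sall1 at 180 bases. That other start of Sall1 also lies inside the span of its gene. Cx3cr1 and the Sall1 start printed above held neither. Among all 32851 RefSeq windows of this length, 23.3% held GAGGAA and 19.7% held GGAAGT. Counted by gene, as for the members, 25.9% of 27025 genes held GAGGAA and 22.2% held GGAAGT in at least 1 window, so a match is common and describes the letters alone.

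No difference between Adrb1-A187V;PS19 and PS19 mice was detected in any of the 9 genes. By edgeR's quasi-likelihood test 0 of 9 had an unadjusted p-value under 0.05, where 2.80% of all 17195 genes tested did, and no gene in the table had an adjusted p-value under 0.05. DESeq2 and limma-voom also gave 0 of 9 an unadjusted p under 0.05. The levels of the 2 genotypes overlapped for all 9 genes, and 2.01% of all genes tested did not overlap. Of the 9 log2 fold changes, 5 were above 0 and 4 below, with a median of 0.013 beside 0.00046 over all genes tested.

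**Figure D1:**
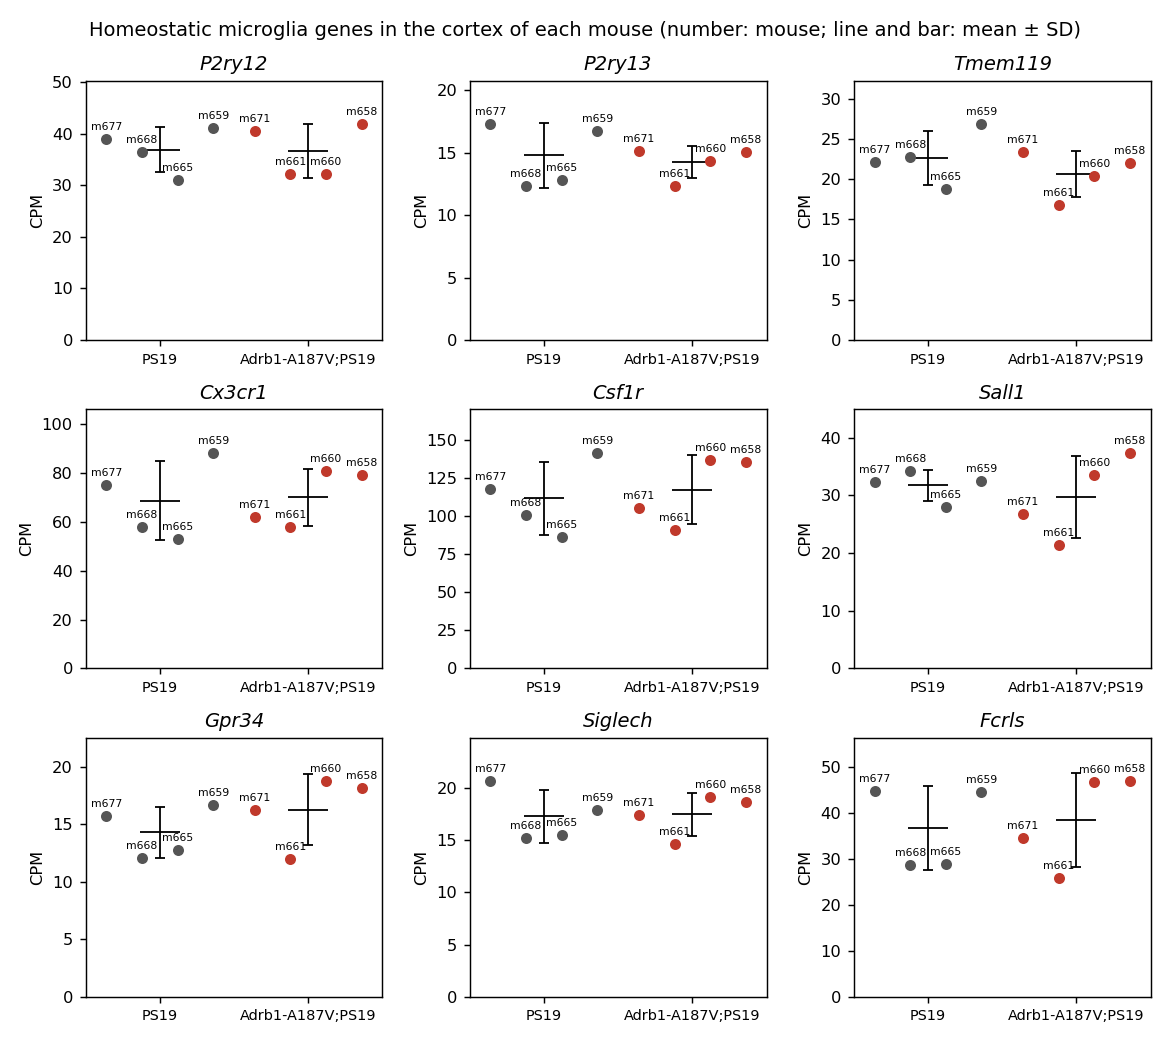
Level of each homeostatic gene in the cortex of each mouse, in CPM on the y axis, for PS19 mice in grey and Adrb1-A187V;PS19 mice in red. Points are mice, labelled with their numbers, and the line and bar are the mean and SD of 4 mice; the genotypes overlap in every panel, and mice m665 and m661 sit low throughout.

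The purinergic receptors P2ry12 and P2ry13 sense ADP, and P2ry12 guides microglial processes toward released nucleotides. P2ry12 (ENSMUSG00000036353, chromosome 3, 59216272 to 59262871 of GRCm38) had 39.0, 36.4, 31.1 and 41.1 CPM in PS19 mice m677, m668, m665 and m659. In Adrb1-A187V;PS19 mice m671, m661, m660 and m658 it had 40.6, 32.1, 32.2 and 41.9 CPM. The genotypes covered nearly the same range, with mice at or above 41.1 and at or below 32.1 CPM in each. The log2 fold change was -0.01 (standard error, SE, 0.11, edgeR, unadjusted p = 0.948, adjusted p = 0.9996), and the 95% interval of the fold ran from 0.849 to 1.17. P2ry13 (ENSMUSG00000036362, chromosome 3, 59207892 to 59210882) had 17.3, 12.3, 12.8 and 16.8 CPM in the PS19 mice and 15.2, 12.4, 14.4 and 15.1 CPM in the Adrb1-A187V;PS19 mice, in the same order of mice. PS19 mice held both the highest and the lowest value. Its log2 fold change was -0.06 (SE 0.13, unadjusted p = 0.656), and its fold lay between 0.798 and 1.16.

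Both genes lie inside Med12l, which is on the opposite strand, and are 5390 bases apart. The strand setting of the authors' counting is not given in the sources used here, so reads of Med12l could in part be counted to either gene or be lost to it. Med12l had a log2 fold change of -0.07 (unadjusted p = 0.251), and Pearson's r of its log2 CPM over the 8 mice was 0.33 with P2ry12 and 0.07 with P2ry13, given as a description. Among the relatives of the members, P2ry1, another ADP receptor, had the smallest p (log2 fold change 0.52, SE 0.25, unadjusted p = 0.0591), and 0 of 13 relatives tested passed.

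The other receptors bind a chemokine, growth factors and a lipid. Cx3cr1, the receptor for the neuronal chemokine fractalkine (ENSMUSG00000052336, chromosome 9, 119901616 to 120069879), had 75.2, 58.0, 53.0 and 88.4 CPM in PS19 mice and 62.0, 58.1, 80.9 and 79.1 CPM in Adrb1-A187V;PS19 mice. PS19 mice held the extremes at both ends, and each genotype had a pair of mice at or under 62.0 CPM and a pair at or above 75.2 CPM. The log2 fold change was 0.03 (SE 0.15, edgeR, unadjusted p = 0.843, fold 0.820 to 1.27 at 95%). The span of Cx3cr1 in the table overlaps other genes on both strands, among them Wdr48, Gorasp1, Csrnp1 and Ttc21a, so part of its count is uncertain in the same way. As a description over the 8 mice, r of Cx3cr1 was -0.90 with Csrnp1, -0.46 with Gorasp1, -0.04 with Wdr48 and 0.813 with Ttc21a.

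Csf1r, the receptor for the growth factors Csf1 and Il34 (ENSMUSG00000024621, chromosome 18), had the highest level of the members, also per length, with 118, 101, 86.2 and 142 CPM in PS19 mice and 106, 91.2, 137 and 136 CPM in Adrb1-A187V;PS19 mice. Highest and lowest values were again in PS19 mice, m659 and m665. Its log2 fold change was 0.07 (SE 0.15, unadjusted p = 0.635, fold 0.844 to 1.31 at 95%). Gpr34, a receptor for lysophosphatidylserine (ENSMUSG00000040229, chromosome X, 13632089 to 13640858), had 15.8, 12.1, 12.8 and 16.7 CPM in PS19 mice and 16.2, 12.0, 18.8 and 18.2 CPM in Adrb1-A187V;PS19 mice. Adrb1-A187V;PS19 mice m660 and m658 were above every PS19 mouse, while m661 was below them all. The log2 fold change of 0.18 (SE 0.15) was the largest in size among the 9 genes (unadjusted p = 0.229, fold 0.914 to 1.41 at 95%). Without mouse m661 it was 0.31 with an unadjusted p of 0.0271 by edgeR. This was the 1 case among the settings and left-out mice tried in which a member passed. In that fit 674 genes of the whole table passed, the most with any mouse left out, beside 481 with every mouse kept. The p of Gpr34 is not adjusted for the genes and fits tried, so it does not show a difference in Gpr34. Gpr34 lies inside Cask on the opposite strand, and Csf1r overlaps Hmgxb3 on the opposite strand, with the same uncertainty of counting (r = -0.08 and 0.02, as a description).

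The remaining surface proteins have less well known ligands. Tmem119, a transmembrane protein used to tell microglia from other macrophages (ENSMUSG00000054675, chromosome 5, 113793729 to 113800516), had 22.1, 22.8, 18.8 and 26.9 CPM in PS19 mice and 23.4, 16.8, 20.4 and 22.1 CPM in Adrb1-A187V;PS19 mice. Mouse m659 was highest and m661 lowest, and the other 6 mice interleaved. The log2 fold change was -0.13 (SE 0.12, edgeR, unadjusted p = 0.295, fold 0.763 to 1.09 at 95%). Siglech, a sialic acid-binding lectin (ENSMUSG00000051504, chromosome 7, 55768178 to 55778925), had 20.7, 15.2, 15.5 and 17.9 CPM in PS19 mice and 17.4, 14.6, 19.2 and 18.6 CPM in Adrb1-A187V;PS19 mice. Its lowest mouse was m661 and its highest m677, 1 of each genotype. The log2 fold change was 0.01 (SE 0.12, unadjusted p = 0.916, fold 0.847 to 1.20 at 95%).

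Fcrls, a scavenger receptor related to Fc receptors (ENSMUSG00000015852, chromosome 3, 87250758 to 87263738), had 44.9, 28.7, 28.8 and 44.6 CPM in PS19 mice and 34.6, 25.9, 46.7 and 47.0 CPM in Adrb1-A187V;PS19 mice. In each genotype 2 mice lay at or above 44.6 CPM and 2 at or below 34.6 CPM, the widest relative range of the 9 genes. The log2 fold change was 0.07 (SE 0.19, edgeR, unadjusted p = 0.728, fold 0.790 to 1.39 at 95%). Sall1, a zinc finger transcription factor that keeps microglia in their resting identity (ENSMUSG00000031665, chromosome 8, 89027235 to 89044162), had 32.3, 34.2, 27.9 and 32.5 CPM in PS19 mice and 26.8, 21.4, 33.5 and 37.4 CPM in Adrb1-A187V;PS19 mice. Both the lowest and the highest mouse, m661 and m658, were Adrb1-A187V;PS19. Its log2 fold change was -0.09 (SE 0.14, unadjusted p = 0.514, fold 0.762 to 1.15 at 95%).

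**Figure D2:**
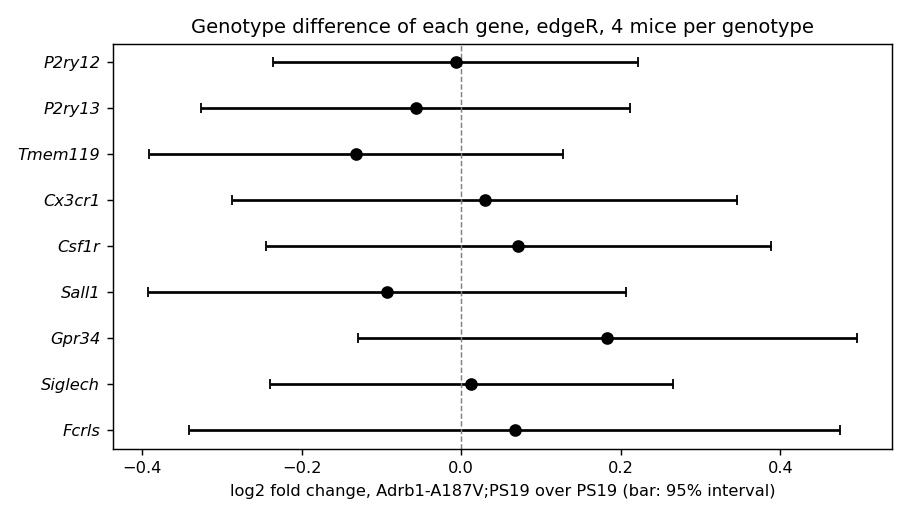
Log2 fold change of each gene in Adrb1-A187V;PS19 over PS19 mice on the x axis, from edgeR with 4 mice per genotype, with 95% intervals as bars. Every interval includes 0, and the point estimates run from -0.13 for Tmem119 to 0.18 for Gpr34.

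The 95% intervals give the sizes of change that these data leave possible. The widest was that of Fcrls, 0.790 to 1.39, and the narrowest on the upper side was that of Tmem119, which ended at 1.09. An exact permutation test of the mean CPM per gene (2-sided, 4 mice against 4) gave p-values of 0.343 for Gpr34 to 0.971 for P2ry12, where the smallest p this design allows is 0.0286. The other 12 homeostatic genes listed, Olfml3 among them, also had 0 of 12 with an unadjusted p under 0.05 and a median log2 fold change of 0.012.

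Per kilobase of gene length the order of the levels was Csf1r, Fcrls, Cx3cr1, P2ry12, Tmem119, Gpr34, Sall1, P2ry13 and Siglech. Csf1r had 23.4 ± 4.46 CPM per kilobase (SD, n = 8) and Siglech 5.14 ± 0.629 (SD, n = 8). Of the 8 neighbouring pairs in this order, P2ry12 with 14.5 ± 1.75 and Tmem119 with 9.35 ± 1.32 CPM per kilobase (SD, n = 8) was the only pair whose ranges over the mice did not overlap. Fcrls, Cx3cr1 and P2ry12 lay close together, and the upper gene of each of these pairs was higher in 5 of 8 mice. Sall1 was above P2ry13 in 4 of 8 mice. Reads of overlapping genes, named above, and the length given in the table both enter this order.

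The spread of each gene over the mice was set beside that of genes with a similar mean CPM. It was not compared with the genotype difference, because extreme mice always differ at least as much as the genotype means. The ratio of the highest to the lowest mouse was 1.35 for P2ry12, 1.40 for P2ry13, 1.41 for Siglech, 1.57 for Gpr34, 1.60 for Tmem119, 1.65 for Csf1r, 1.67 for Cx3cr1, 1.75 for Sall1 and 1.82 for Fcrls. Its median of 1.60 stood beside 1.24 over the 7219 genes whose mean CPM lay within the range of the members. The biological coefficient of variation, edgeR's estimate of the spread between mice beyond counting error, was 10.6% for P2ry12 to 18.6% for Fcrls, with a median of 13.7% beside 7.72% for the genes of like level.

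The same mice were high or low for most of the 9 genes. PS19 mouse m659 was among the highest 4 mice for 9 of 9 genes, Adrb1-A187V;PS19 mouse m658 for 8, PS19 mouse m677 for 7 and Adrb1-A187V;PS19 mouse m660 for 6. PS19 mouse m665 and Adrb1-A187V;PS19 mouse m661 were among the lowest 4 for 9 of 9. Mouse m661 was the lowest of all for 5 genes, m665 for 3 and m668 for 1. High and low mice thus came from both genotypes.

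All 36 pairs of the 9 genes had a positive Pearson's r of log2 CPM over the 8 mice (prior count 2), from 0.419 to 0.977 with a median of 0.704. An exact permutation test over all 40320 pairings, 2-sided, with Benjamini-Hochberg adjustment over the 36 pairs, gave 9 pairs an adjusted p under 0.05. For Spearman's rho 1 pair passed, Cx3cr1 with Csf1r. With the 2 mice farthest from the median of the first gene left out, the median r was 0.560 over the 36 pairs and at least 0.632 in each of the 9. With the genotype means subtracted the median r was 0.747, and at least 0.853 in the 9. The count of pairs that passed depended on single mice. It was 10 without m668, 5 without m677, m665 or m659, 2 without m671, and 1 without m661, m660 or m658.

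For 2 genes, Cx3cr1 and Gpr34, the log2 CPM of the mice fell into 2 sets parted by a gap wider than the spread within either set, a criterion chosen after the values were seen. The lower set was m661, m665, m668 and m671 for Cx3cr1 and the first 3 of these for Gpr34. An r over all 8 mice then rests in part on the gap, and the relation within a set of 3 to 5 mice cannot be tested. For the 15 pairs with either gene r is therefore a description, and 5 of the 9 pairs above are among them. By this criterion Fcrls was not split, though its largest gap took 42.5% of its range, beside 37.6% for Cx3cr1. The 4 mice below that gap were the lower set of Cx3cr1, so r with Fcrls rests in part on a gap too. The largest gap also took more of the range than in Cx3cr1 for P2ry12, 40.6%, and Sall1, 40.3%. Below the gap of P2ry12 were m665, m661 and m660. These were also the lowest mice for Tmem119, so r of P2ry12 with Tmem119 rests in part on a gap as well. Only m661 lay below the gap of Sall1. Over the 21 pairs without Cx3cr1 or Gpr34, adjusted over those alone, 4 had an adjusted p under 0.05. Among them were pairs of Fcrls and the pair of P2ry12 with Tmem119.

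These 4 pairs joined the surface lectin Siglech to Fcrls (r = 0.933, rho = 0.905, exact permutation p = 0.000794, adjusted over 36 pairs 0.0143), Csf1r to Fcrls (r = 0.933, rho = 0.762, adjusted exact p = 0.0371), P2ry13 to Siglech (r = 0.873, rho = 0.762, adjusted exact p = 0.0405) and P2ry12 to Tmem119 (r = 0.814, rho = 0.714, adjusted exact p = 0.0405). Of the pairs with a split gene, Cx3cr1 and Csf1r had the highest r, 0.977, with a rho of 0.976. Fcrls had an r of 0.934 with Gpr34 and 0.929 with Cx3cr1. Gpr34 had an r of 0.877 with Csf1r and 0.856 with Siglech. Fcrls was in 4 of the 9 pairs and Sall1 in 0.

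Sall1 had r values of 0.419 with P2ry13 to 0.709 with Fcrls, and for none of its 8 pairs was the adjusted exact p under 0.05. The lowest r of any pair was that of P2ry13 with Sall1, for which rho was -0.02. P2ry12 had a median r of 0.542 with the other 8 genes, which came to 0.041 without the 2 mice farthest from its own median. It was then 0.632 with Tmem119 and 0.487 with P2ry13, and -0.12 to 0.073 with the other 6 genes, for which the relation rested on those mice. Leaving them out also narrows the range of P2ry12. P2ry12 and P2ry13, the neighbours on chromosome 3, had an r of 0.711 and a rho of 0.619 (adjusted exact p = 0.116). Whether the r of one pair differed from that of another was not tested.

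**Figure D3:**
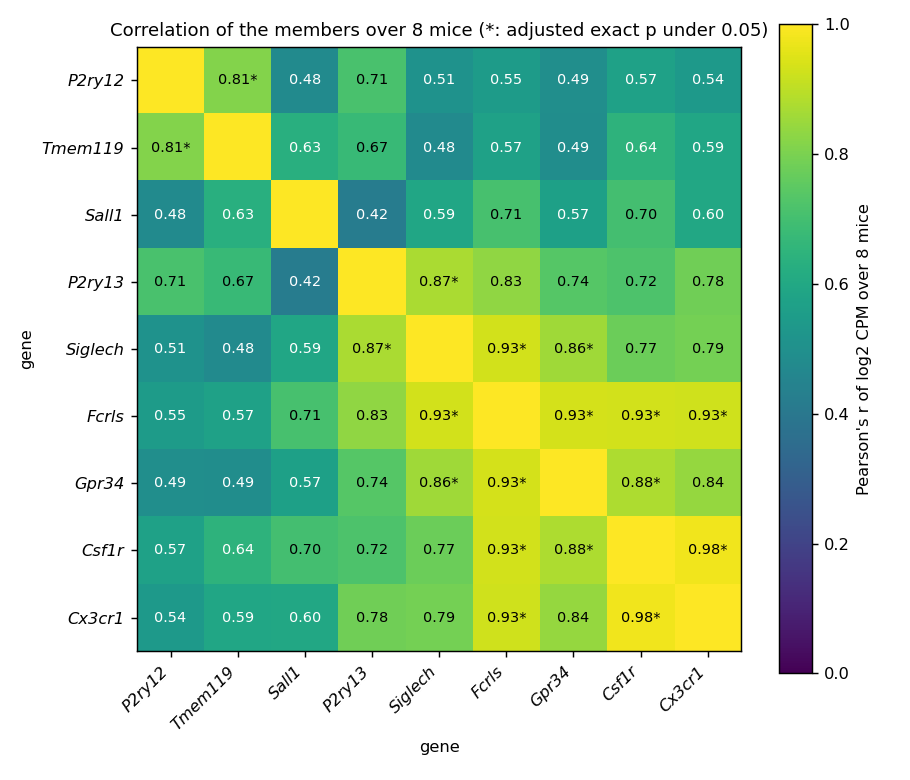
Pearson's r of log2 CPM over the 8 mice for each pair of the 9 genes, with genes on both axes and the value printed in each cell; an asterisk marks an adjusted exact p under 0.05 over the 36 pairs. The highest values are those of Cx3cr1 with Csf1r and of Fcrls with Gpr34, Siglech, Csf1r and Cx3cr1, and the rows of P2ry12, Sall1 and Tmem119 have the lowest medians, 0.542, 0.595 and 0.612.

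Set against the mean of the other 8 members, r was 0.957 for Fcrls, 0.932 for Csf1r, 0.906 for Cx3cr1, 0.865 for Gpr34, 0.863 for Siglech, 0.828 for P2ry13, 0.685 for Tmem119, 0.680 for Sall1 and 0.648 for P2ry12. These are descriptions over 8 mice that share libraries and depth. Among the 17187 genes that could be ranked against the same mean, Fcrls stood at rank 33 and P2ry12 at rank 1337. Pld4, Myo1f, Plek, Lag3, Stat3, Irf8, Gpr17 and Ctsd were among the 10 genes outside the list most like the mean of the 9 members, with r from 0.982 to 0.991. The single gene most like each member was H2-D1 for Cx3cr1 (r = 0.988), Lgmn for Csf1r (0.982), Lyn for Gpr34 (0.991), Mpeg1 for Fcrls (0.994), Irf9 for Sall1 (0.965), Spidr for Siglech (0.983), Mpv17 for P2ry13 (0.964), Snx3 for Tmem119 (0.966) and Bloc1s4 for P2ry12 (0.952).

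The ligands and regulators of these genes were then compared with them. Spi1, which encodes PU.1, had 7.21, 5.72, 4.43 and 7.58 CPM in PS19 mice m677, m668, m665 and m659 and 5.87, 3.97, 7.04 and 7.12 CPM in Adrb1-A187V;PS19 mice m671, m661, m660 and m658. Irf8, a transcription factor of microglia and other myeloid cells, had 13.4, 8.82, 8.57 and 14.5 CPM in the former and 10.4, 6.55, 13.9 and 14.4 CPM in the latter. Both were lowest in m661 and highest in m659, and their genotypes overlapped. Over 63 pairs of a member with Csf1, Il34, Cx3cl1, Tgfb1, Spi1, Irf8 or Gfap, 27 had an adjusted exact permutation p under 0.05 by Pearson's r and 6 by Spearman's rho.

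By Pearson's r, Spi1 passed with 8 of the 9 members, with r from 0.795 for Tmem119 to 0.928 for Fcrls, and not with P2ry12 (r = 0.686). Irf8 passed with 7 of 9, with r up to 0.981 for Fcrls. By Spearman's rho, Spi1 passed with 0 of 9 and Irf8 with 2. Without the 2 mice farthest from the median of the member, the median r was 0.812 with Spi1 and 0.837 with Irf8, and the lowest 0.126 and 0.135. The pairs of Cx3cr1 and Gpr34 are again descriptions, and those of Fcrls again rest in part on its gap. The largest gap took 39.4% of the range for Spi1, above m661 and m665, and 57.0% for Tgfb1, above m661 alone. Csf1 and Tgfb1, the cytokine that keeps microglia in their homeostatic state, each passed with 3 of 9 by Pearson's r, and with 1 and 0 by rho. Il34 and Cx3cl1, the ligands made largely by neurons, passed with 0 of 9, and Cx3cl1 had r values of -0.515 to 0.446. Gfap, the astrocyte filament gene, also fell into 2 sets of 4 mice parted by a gap, at 181 to 353 CPM in m661, m665, m668 and m671 and 747 to 836 CPM in the others, so its 9 pairs, 6 of which are among the 27, are descriptions too. Over the 42 pairs in which neither gene was split, adjusted over those alone, 16 passed. Of the 63 pairs, 25 passed without m668, 19 without m671, 17 without m677 or m665, 7 without m661, and 5 without m659, m660 or m658.

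In the genotype comparison 0 of 14 ligands and regulators had an unadjusted p under 0.05 by edgeR. Il34 had the smallest, with a log2 fold change of -0.15 (SE 0.07, unadjusted p = 0.0574). Cx3cl1 had a log2 fold change of -0.09 (SE 0.06, unadjusted p = 0.144).

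The levels of the 9 genes spanned a smaller range over the mice than those of 10 general microglia genes (Aif1, Ctss, C1qa, C1qb, C1qc, Laptm5, Ly86, Cd53, Ptprc and Itgam), used as a reference for microglial RNA. The summed reference was 512, 331, 279.9 and 553 CPM in PS19 mice m677, m668, m665 and m659 and 365, 239.9, 568 and 529 CPM in Adrb1-A187V;PS19 mice m671, m661, m660 and m658. It spanned 2.37-fold, where the sum of the 9 homeostatic genes spanned 1.501-fold, from 284 to 427 CPM. The reference sum weighs most on Ctss, C1qa, C1qb and C1qc, with means of 106, 85.0, 74.7 and 63.6 CPM. Laptm5 had a mean of 45.3 CPM, and the other reference genes had less. The ratio of the highest to the lowest mouse was 2.23 to 2.70 for Ctss and the C1q genes. It was 1.69 for Aif1 to 3.16 for Ptprc among the rest. For 7 of the 9 genes the ratio of the highest to the lowest mouse was below that of every reference gene, the lowest of which was 1.69. The median of this ratio was 2.26 over the reference genes, 1.60 over the 9 genes and 1.56 over the 12 other homeostatic genes. Those 12 genes, the alternative reference, summed to 219 to 331 CPM. The contrast in range therefore holds for these 10 reference genes and not for every list of microglia genes. No difference of the reference sum between genotypes was detected (419 ± 134 against 426 ± 152 CPM, SD, n = 4, 2-sided exact permutation test, p = 0.914).

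As a percentage of the reference sum, P2ry12 was 7.62, 10.99, 11.1 and 7.44% in the PS19 mice and 11.1, 13.4, 5.67 and 7.91% in the Adrb1-A187V;PS19 mice. Mice with a low reference sum had a high percentage in both genotypes. The percentage shares its denominator with the reference sum, so no correlation of the pair is given. For 8 of the 9 genes the percentage was highest in m661, the mouse with the lowest reference sum, and for Sall1 it was highest in m668. It was lowest in m660 or m659 for 4 genes each and in m677 for 1. The percentage spanned 2.36-fold for P2ry12, 2.04-fold for P2ry13 and 1.94-fold for Tmem119, down to 1.34-fold for Fcrls, the smallest span of the 9. Between genotypes the log2 ratio to the reference differed by -0.13 for Tmem119 to 0.18 for Gpr34, and none of the 9 passed a 2-sided exact permutation test (smallest p 0.371, adjusted p = 1).

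**Figure D4:**
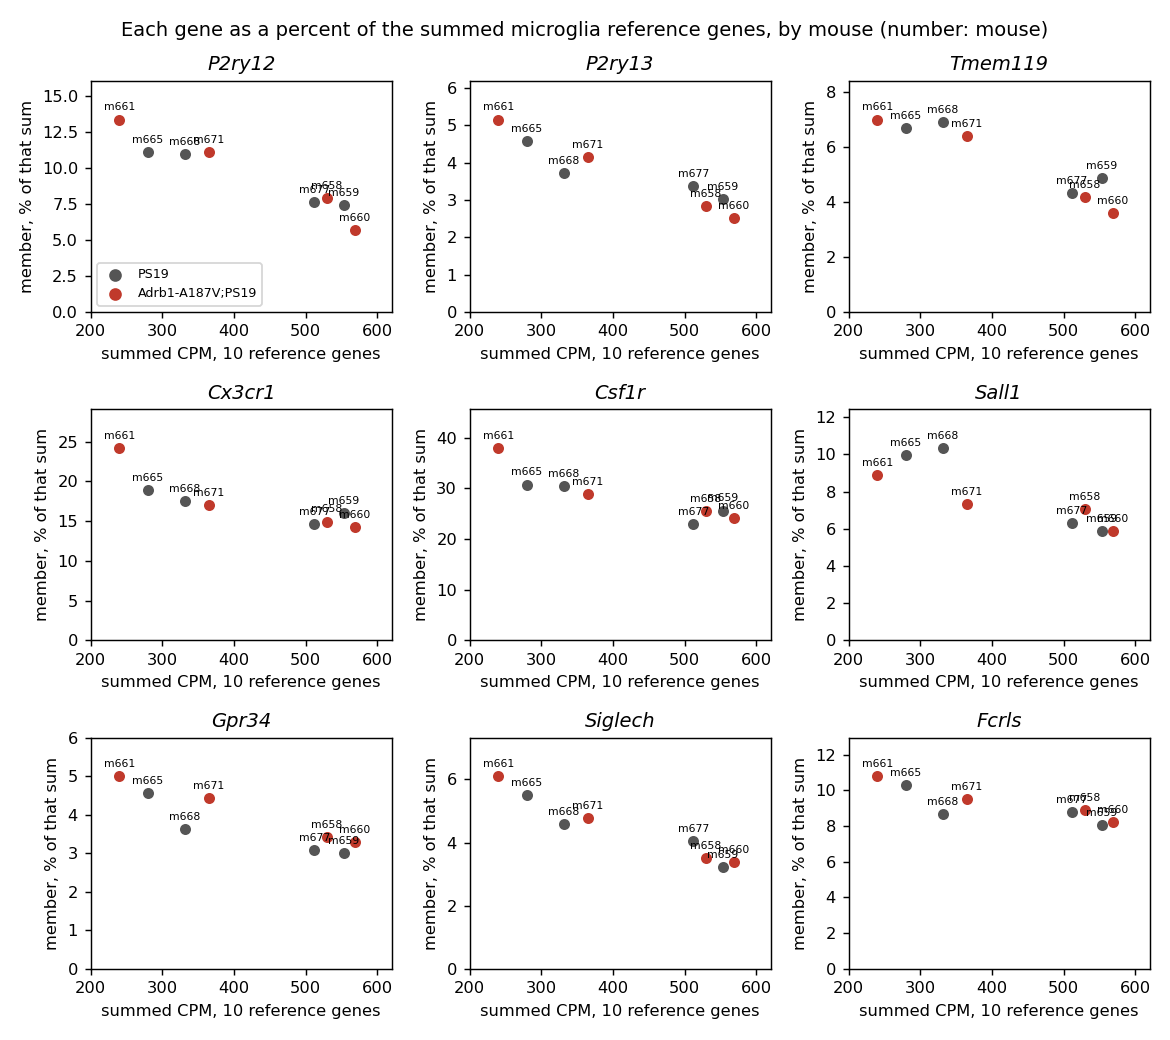
Each homeostatic gene as a percent of the summed CPM of 10 microglia reference genes on the y axis, against that sum on the x axis, for 4 PS19 mice in grey and 4 Adrb1-A187V;PS19 mice in red, labelled by number. The percentage is highest in mouse m661 in 8 of 9 panels and falls least across the panel of Fcrls; both axes share the reference sum.

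Disease-associated microglia genes ranged more widely as a list, but not in every gene. The ratio of the highest to the lowest mouse had a median of 2.35 over 18 of these genes. It was 1.15 for the protease gene Ctsb, below every homeostatic gene, lay within the range of the homeostatic genes for 5 others, and was above that range for 12. It reached 11.01 for the integrin gene Itgax, 20.1 for the lectin gene Clec7a and 25.7 for the cystatin gene Cst7. Cst7 had 13.5, 2.62, 0.612 and 9.50 CPM in the PS19 mice and 3.23, 0.526, 10.2 and 9.89 CPM in the Adrb1-A187V;PS19 mice. Mice m665 and m661, lowest in most homeostatic genes, were also the lowest here, so homeostatic genes and Cst7 were low in the same mice. Of the 18, 0 had an unadjusted p under 0.05 between genotypes. As a description over the 8 mice, r with the mean of the 9 members had a median of 0.940 over the disease-associated genes, 0.966 over the reference genes, 0.812 over 8 astrocyte genes, -0.50 over 8 neuron genes and -0.02 over all genes tested. The median was -0.19 over 8 oligodendrocyte genes and 0.008 over 8 endothelial and pericyte genes. Single astrocyte genes ran from -0.365 to 0.977, with 4 of 8 above 0.8. So were 14 of 18 disease-associated genes, 8 of 10 reference genes and 2.79% of all genes tested. Disease-associated genes ran from 0.474 to 0.982 and neuron genes from -0.80 to 0.311. Neuron genes included the only listed genes that passed between genotypes, Gad2 (log2 fold change 0.24, edgeR, unadjusted p = 0.00325) and Slc17a7 (-0.19, unadjusted p = 0.0217), neither with an adjusted p under 0.05. The part of these other cell types in the levels of the homeostatic genes was not tested.

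**Figure D5:**
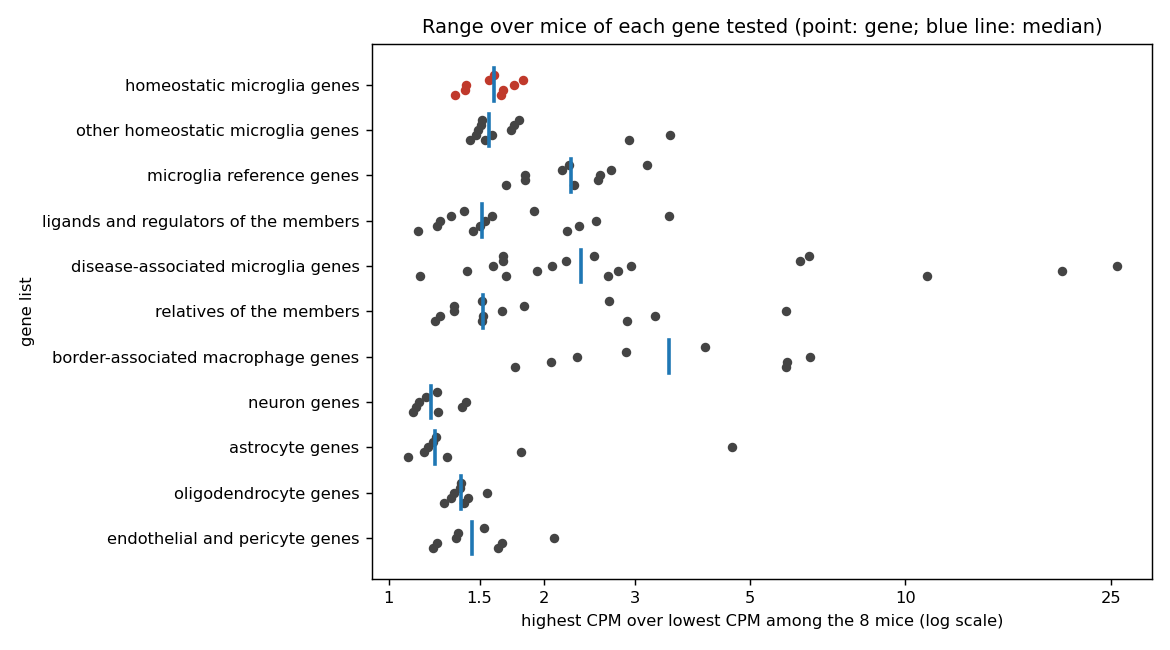
Ratio of the highest to the lowest CPM among the 8 mice for each gene tested, on a log scale, by gene list; points are genes and blue lines are medians of lists with at least 2 genes tested. The 9 homeostatic genes, in red, lie between 1.35 and 1.82, and disease-associated genes run from 1.15 to 25.7.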

How the data were processed

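Cortical RNA was sequenced from 4 PS19 and 4 Adrb1-A187V;PS19 mice, grouped by the genotype in the labels. The authors aligned the reads to GRCm38 with HISAT2 2.0.5, counted them with featureCounts 1.5.0-p3 and deposited raw counts per Ensembl gene; how strand and multiple mapping were handled is not given in the sources used here. Gene length is the deposited column. Counts were filtered (filterByExpr), scaled with TMM and tested with edgeR 4.0.16 (quasi-likelihood, 2-sided, no covariate, Benjamini-Hochberg over 17195 genes) in R 4.3.3. A call is an unadjusted p under 0.05, the threshold of the study. CPM carry the TMM factors, and log2 CPM have a prior count of 2. Single values and correlations were tested with exact permutations. Totals of 14653222 to 21223754 counts limit the precision of low genes. Mice of one genotype differed by more than sampling noise (chi-square per degree of freedom 4.83 to 9.94); that each came from a separate animal is taken from its label. The alternatives were DESeq2 1.42.0, limma-voom (limma 3.58.1), DESeq2 size factors, count filters, another prior count and reference, genotype means subtracted, and each mouse left out. Named genes are the 9 members, up to 2 genes of smallest p in a list, those most like the members, and overlapping neighbours; Olfml3, Ctsb, Cst7, Clec7a and Itgax were named after their values were seen. Some genes that this rule names are not reported here. The members and lists were chosen with earlier results of these data known. The fits were tested on simulated counts.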

Additional observations from a re-analysis of the deposited data

How the results depend on the processing

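DESeq2, limma-voom, DESeq2 size factors and both other count filters left 0 of 9 members with an unadjusted p under 0.05 and changed no sign of their log2 fold changes. With no filter beyond 1 count, 1366 genes of the table passed in place of 481. Leaving out each mouse in turn gave 0 to 1 members, the 1 being Gpr34 without m661, and 431 to 674 genes of the table. The sign of the log2 fold change then changed for 7 members, with ranges of -0.083 to 0.053 for P2ry12, -0.13 to 0.027 for P2ry13, -0.078 to 0.17 for Cx3cr1, -0.036 to 0.21 for Csf1r, -0.22 to 0.040 for Sall1, -0.041 to 0.11 for Siglech, -0.043 to 0.22 for Fcrls. The difference of the log2 ratio to the reference changed sign for 8, with ranges of -0.20 to 0.21 for P2ry12, -0.23 to 0.11 for P2ry13, -0.28 to 0.035 for Tmem119, -0.12 to 0.13 for Cx3cr1, -0.062 to 0.16 for Csf1r, -0.26 to 0.0089 for Sall1, -0.15 to 0.14 for Siglech, -0.011 to 0.13 for Fcrls, and for Siglech it was -0.0022 with the other homeostatic genes as reference; none of these passed, and the cause was not tested. The pairs of members that passed numbered 1 to 10 with 1 mouse left out and 4 where neither gene was split, and the pairs with ligands and regulators 5 to 25 and 16. The counts over pairs in which neither gene was split, and leaving out mice for the ligands and regulators, were chosen after seeing the data. Fewer mice or pairs enter these counts. The median r of a member with the mean of the others stayed between 0.797 and 0.889. A prior count of 0.5 and DESeq2 size factors changed no call among the 36 pairs of members and were not run for the others. No paired analysis was possible because mice are labelled by individual numbers, with no litter.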
